A study of Mus musculus with 6 samples.

Results

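The contacts described here join the constant genes of the mouse immunoglobulin heavy chain locus (Igh) to its distal V genes. They were measured by chromosome conformation capture carbon copy (5C), in which a pair of primers, 1 forward (FOR) and 1 reverse (REV) on HindIII fragments, is ligated where the fragments were joined and the products are counted by sequencing. Members were chosen by position alone: 1 fragment midpoint had to lie in the constant genes (mm9 chromosome 12, 114486613 to 114656272) and the other in the distal V genes (115723372 to 117190694). This gave 888 of the 12656 possible Igh primer pairs, between 25 constant-region fragments (12 FOR and 13 REV) and 71 distal V fragments. The near distal V genes held 43 of these fragments (115723372 to 116439886; 538 pairs) and the far distal V genes 28 (116539430 to 117190694; 350 pairs). The paired fragments lay 1070 to 2701 kb apart on the reference chromosome.

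Mouse embryonic fibroblasts (MEF) were taken straight from culture. Pro-B cells came from the bone marrow of animals deficient in Rag2, one of the recombinase genes, and had grown for 4 days with the cytokine IL7. Resting B cells were CD43-negative cells taken from the spleen with magnetic beads and were not cultured. Each of the 3 cell types had 2 libraries, which the series text calls biological replicates. Cell type, tissue and culture cannot be told apart in this design.

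In germline order the constant genes run from Igha at the 3′ end through Ighe, Ighg2c, Ighg2b, Ighg1, Ighg3 and Ighd to Ighm, which lies next to the J segments. The distal V genes lie at the other end of the locus, beyond the D segments and the proximal and middle V genes. V(D)J recombination joins a V gene to a D-J segment and removes the DNA between them, and contraction of the locus in B-lineage progenitors brings distal V genes closer to the D-J end. Without Rag2 the pro-B alleles stay in germline order, while resting B cells carry recombined alleles, so the separations given here describe the reference chromosome and not every allele of the resting B cells. No mm9 annotation was used, so fragments are called by primer number, from 33 at the 3′ end of the constant region to 75 next to the D-J region and from 377 to 792 across the distal V genes.

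Depth was 20580457 to 24191175 valid read pairs per library. The members were thinly covered: their median was 34 and 50.5 reads in pro-B replicates 1 and 2, 55 and 83 for the MEF libraries and 149.5 and 135.5 for the resting B ones. Of the 888 pairs, 746 had reads in all 6 libraries and 2 had none in any, and 843 passed the filter of at least 10 reads in 2 libraries and were tested. A count of 0 allows a level of up to 3 reads. Pro-B replicate 2 stood apart, with 106 members at 0 against 28 in pro-B replicate 1 and 12 to 21 in the other libraries. This held over the whole locus, where 1641 of 12656 Igh pairs were at 0 in it, against 376 to 622 in each other library. Pro-B replicate 1 stood apart in reads between Igh and the gene desert on chromosome 5. It had 122047 of them (0.554% of valid read pairs), against 462793 to 703564 (2.02% to 3.41%) in each other library. Between the libraries of a cell type, log2 counts of the 888 members, many of which share a fragment, had a Pearson's r of 0.548 for pro-B cells, 0.827 for MEF and 0.951 for resting B cells. Over all Igh pairs it was 0.725, 0.905 and 0.940.

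The constant genes gave more reads with the distal V genes in resting B cells than in MEF or pro-B cells. Member pairs took 1.61% and 1.55% of all Igh reads in the resting B libraries, against 0.523% and 0.720% for MEF and 0.398% and 0.857% for pro-B cells. Both resting B libraries lay above the other 4, and the pro-B libraries spanned the range of MEF. The mean share of resting B cells was 1.58% ± 0.04, that of MEF 0.622% ± 0.139 and that of pro-B cells 0.627% ± 0.325 (SD, n = 2), and the exact two-sided permutation test over libraries gave p = 0.333 for resting B cells against either, the smallest that 2 against 2 libraries allow.

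In CPM (reads scaled to a common library size by TMM over all cis pairs), the near distal V genes gave 7614 and 8400 with the constant region in resting B replicates 1 and 2, against 4398 and 3405 in the MEF and 3063 and 5548 in the pro-B libraries. The far distal V genes gave 5234 and 5218 in the resting B libraries, against 2356 and 2159 in the MEF and 1612 and 2022 in the pro-B libraries. Groups did not overlap in either part for resting B cells, and the pro-B libraries were wider apart for the near than for the far genes. In edgeR's quasi-likelihood test over 55 region pairs, of which 32.7% were called higher in resting B cells over MEF and 20.0% over pro-B cells, both parts rose in both comparisons. Resting B cells over MEF gave a log2 fold of 1.04 ± 0.31 (SE, n = 2 libraries per group, adjusted p = 0.0255) with the near and 1.21 ± 0.24 (adjusted p = 0.0049) with the far genes. Over pro-B cells the log2 folds were 0.89 ± 0.31 (edgeR adjusted p = 0.0453) and 1.52 ± 0.24 (edgeR adjusted p = 0.0035). The 2 comparisons share the resting B libraries.

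The call of the far genes over pro-B cells held without any 1 library. Over MEF it was lost without MEF replicate 1 (edgeR adjusted p = 0.0536) or 2 (0.0807), and the call of the near genes without MEF replicate 1 (0.104) or 2 (0.228) or resting B replicate 2 (0.0901). The call of the near genes over pro-B cells held only without pro-B replicate 2, where its log2 fold was 1.38, and was lost without pro-B replicate 1 (0.52; edgeR adjusted p = 0.0733), MEF replicate 1 (0.0875) or 2 (0.120), or resting B replicate 1 (0.0982) or 2 (0.152). With gene desert reads as library size or with the distance trend removed, all 4 kept their direction and none passed (edgeR adjusted p of 0.0703 to 0.346 and 0.0916 to 0.211).

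**Figure D1:**
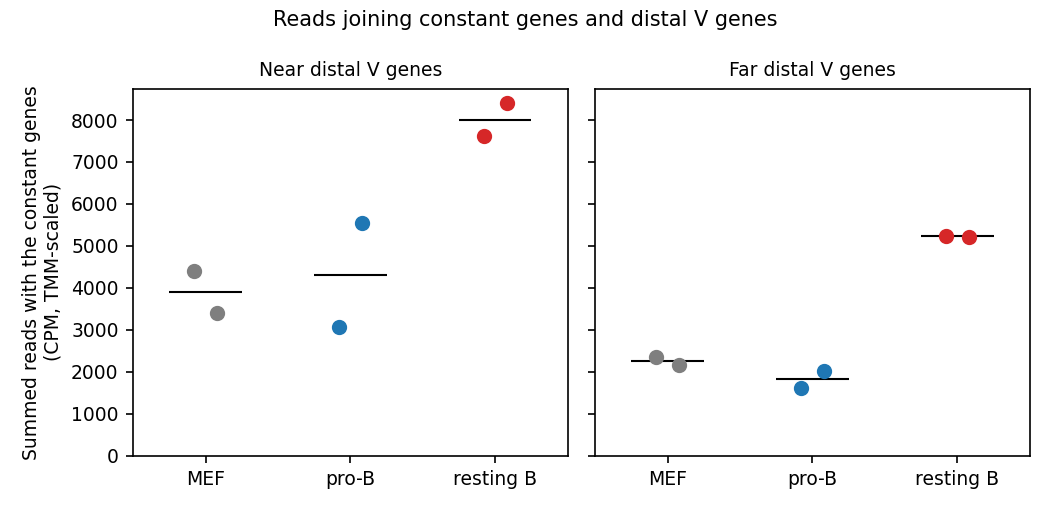
Summed reads between the constant genes and the near (left) or far (right) distal V genes, in CPM after TMM scaling on an axis from 0. Each point is 1 library and each line the mean of the 2 libraries of a cell type; both resting B libraries sit above the other 4 in each panel, from 7614 to 8400 CPM on the left and from 5218 to 5234 on the right.

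The shift was spread over most primer pairs rather than carried by a few. Among tested members, the median log2 fold of resting B cells over MEF was 0.95 (interquartile range 0.17 to 1.54), with 79.0% above 0, against a median of -0.02 over the 11940 tested Igh pairs. Over pro-B cells it was 1.27 (0.21 to 2.44), with 78.1% above 0, against 0.01. Both resting B libraries exceeded both MEF libraries in 512 of the 888 members (57.7%; 32.3% of all Igh pairs) and both pro-B libraries in 510 (57.4%; 31.6% of all Igh pairs). They exceeded all 4 other libraries in 401 members (45.2%; 22.2% of all Igh pairs) and lay below all 4 in 58 (6.53%; 22.3% of all Igh pairs).

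Which single pairs reached the threshold turned on the libraries in the fit. With all 6 libraries, 48 members rose and 3 fell over pro-B cells (edgeR adjusted p under 0.05; 2.74% of all tested Igh pairs were called higher and 5.16% lower). Over MEF no member was called in edgeR's test (0.369% of all tested Igh pairs were called higher and 0.385% lower). At an unadjusted p under 0.05, 97 members were higher over MEF and 12 lower (11.5% and 1.42%; 8.74% and 12.2% of all Igh pairs). With the 4 compared libraries alone the order turned round. Over pro-B cells 0 members were called, and 0 of the 11394 tested Igh pairs in either direction. Over MEF, 210 members were higher and 15 lower (25.3% and 1.81%, against 14.0% and 14.5% of all Igh pairs). Over MEF, 207 were higher without pro-B replicate 1 and 209 without pro-B replicate 2 (13.7% and 13.8% of all Igh pairs). Without any 1 MEF or resting B library the calls over pro-B cells were lost across the whole locus, members included. The member median log2 fold over pro-B cells stayed at 1.23 to 1.35 there. It was 1.31 without pro-B replicate 1 and 1.59 without pro-B replicate 2. DESeq2 called 60 higher and 5 lower over MEF (7.12% and 0.593%; 6.25% and 7.39% of all Igh pairs) and 194 and 12 over pro-B cells (23.0% and 1.42%; 10.9% and 13.4%). With the distance trend removed, edgeR called 22 and 4 over pro-B cells (2.61% and 0.474%; 3.02% and 3.62% of all Igh pairs), so the share called higher was then near that of the locus.

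Contacts at these separations differed between cell types elsewhere in the locus too, so members were set beside other Igh pairs at matched distance. From 1000 to 1500 kb the median log2 fold of resting B cells over MEF was 0.78 for members and 0.07 for other pairs, and from 1500 to 2000 kb it was 1.22 and 0.09. From 2000 to 3000 kb it was 0.82 for members and 0.86 for other pairs, so at the longest separations members did not stand above the rest of the locus in this comparison. Over pro-B cells the medians were 0.80 and -0.13, then 1.62 and -0.03, then 1.33 and 0.97. With each library's distance trend removed, the member medians were 0.55 over MEF and 0.75 over pro-B cells.

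The distal V genes did not gain reads with every other part of the locus. With the D-J region, next to the constant genes, their median pair log2 fold was 0.33 over MEF and 0.65 over pro-B cells. With the V-D intergenic region it was -1.37 and -1.13, and with the proximal V genes -1.08 and -0.94. With the flank 3′ of the regulatory region, on the far side of the constant genes, it was 1.98 and 1.58, above the member medians. With the 3′ regulatory region itself it was 0.72 over MEF and -0.23 over pro-B cells. The constant genes with the proximal and middle V genes, at shorter range, gave 0.28 and 0.63. These medians are descriptions of primer pairs that share fragments, and their differences were not tested. In summed reads, the far distal V genes also rose with the D-J region. Their log2 fold was 0.83 over MEF and 0.99 over pro-B cells (edgeR adjusted p = 0.0406 and 0.0306; 32.7% and 20.0% of region pairs were called higher). The near distal V genes with the D-J region were not called, at 0.14 and -0.31 (edgeR adjusted p = 0.715 and 0.392).

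Fragments that rose with the distal V genes were spread along the constant region, among others that did not pass. Reads of each constant fragment summed over all distal V fragments were called higher over MEF for 10 of 25 fragments and over pro-B cells for 12 (edgeR over all fragment-by-region sums, of which 20.1% and 17.7% were called higher), and lower for none (12.0% and 15.7% of all sums were called lower). No constant fragment was called in pro-B cells over MEF (1.74% of all sums were called higher and 0.0496% lower). The median log2 fold over the 25 fragments was 0.97 over MEF and 1.18 over pro-B cells, with 22 and 23 above 0. Without either resting B library the calls of constant fragments were lost in both comparisons, and without either MEF library those over MEF. Calls of single pairs were lost across the whole locus in these fits too. Over MEF 18 passed without either pro-B library or with the 4 compared libraries alone (36.0% to 36.7% of all sums were then called higher), and over pro-B cells 19 without pro-B replicate 2 (34.1% of all sums). With gene desert reads as library size 5 passed over MEF and 3 over pro-B cells (12.4% and 6.45% of all sums).

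The 3 highest folds over MEF belonged to REV 33, REV 35 and REV 37 at the 3′ end, on the Igha side. REV 37 (114501531 to 114502799, 1269 bp) gave 998 and 854 CPM with the distal V genes in resting B replicates 1 and 2, against 273 and 200 in the MEF and 114 and 261 in the pro-B libraries. Both resting B libraries lay at over 3 times every other library. Its log2 fold was 1.97 ± 0.44 over MEF and 2.31 ± 0.44 over pro-B cells (SE, n = 2; edgeR adjusted p = 0.0174 and 0.0101). REV 35 (114493852 to 114496828) gave 851 and 923 CPM in the 2 resting B libraries, where MEF had 261 and 257 and pro-B cells 158 and 241. The groups of resting B cells and the rest did not overlap, and all 35 tested pairs of this fragment had a fold above 0 over MEF and 34 over pro-B cells. Its log2 folds were 1.78 ± 0.30 and 2.15 ± 0.30 (edgeR adjusted p = 0.00779 and 0.00469). Its reads with the gene desert on chromosome 5, which lies outside the locus, were also higher over pro-B cells (log2 fold 1.73, edgeR adjusted p = 0.0465; 8.89% of the 225 Igh fragments were called), and the part of this in the result was not tested. REV 33 (114486613 to 114491122), the fragment at the 3′ edge, gave 1726 and 1829 CPM in the resting B libraries, against 626 and 540 in the MEF and 601 and 660 in the pro-B libraries. It had the most reads of the 25 in both resting B libraries, while in the other 4 libraries REV 44 had more than it, with 604 to 1008 CPM. In pro-B replicate 2 REV 41 had the most of all, at 1133 CPM. REV 33 rose by 1.61 ± 0.27 over MEF and 1.5 ± 0.27 over pro-B cells on the log2 scale (edgeR adjusted p = 0.00779 and 0.00864), and its reads with the desert were not called. These 3 fragments held 21 of the 48 called member pairs. Of the 2 fragments that lie between them, FOR 34 passed in neither comparison, with log2 folds of 0.45 ± 0.55 and 0.44 ± 0.55, and FOR 36 passed only over pro-B cells, at 1.93 ± 0.45 against 0.49 over MEF.

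The 5′ end, next to the D-J region, rose as well. REV 75 (114652514 to 114656272), the last fragment before the D-J region, gave 706 and 712 CPM in the 2 resting B libraries, where MEF had 347 and 303 and pro-B cells 297 and 332. Its replicates lay closer together than its groups, and its log2 fold was 1.13 ± 0.25 over MEF and 1.18 ± 0.25 over pro-B cells (edgeR adjusted p = 0.0183 and 0.0143). Its neighbours REV 70, REV 73 and FOR 74 rose by 0.97 to 1.53 over MEF and by 1.5 to 1.78 over pro-B cells, all past the threshold. FOR 71, a fragment of 306 bp among them, had folds of 1.49 ± 0.62 and 1.28 ± 0.62 that did not pass.

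Between the ends, called fragments lay among uncalled ones. FOR 38, FOR 43 and REV 48 rose in both comparisons, by 1.22 to 1.41 over MEF and 1.25 to 1.68 over pro-B cells. REV 55 passed only over pro-B cells, at 1.77 ± 0.29, against 0.85 over MEF, and its reads with the desert were also called there (log2 fold 2.39, edgeR adjusted p = 0.00803). REV 41 and REV 44, among the fragments with the most reads, had folds of 1.27 ± 0.53 and 0.94 ± 0.30 over MEF that did not pass. FOR 40, FOR 46, FOR 54, FOR 58, REV 61 and FOR 68 passed in neither comparison, with log2 folds of 0.17 to 1.09 over MEF and 0.22 to 0.93 over pro-B cells.

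A few constant fragments did not share the direction. FOR 49 (114559616 to 114579798), at 20183 bp the longest of the 25, gave 280 and 316 CPM in the resting B libraries, against 446 and 346 in the MEF and 420 and 424 in the pro-B libraries. Both resting B libraries lay below the other 4. The sums had log2 folds of -0.41 ± 0.26 and -0.50 ± 0.26 and did not pass (edgeR adjusted p = 0.267 and 0.179), and 27 of its 35 pairs were below 0 over MEF and 26 over pro-B cells. REV 39, of 12017 bp, had folds of -0.02 ± 0.30 and 0.25 ± 0.30. REV 53 was the fragment with the fewest reads, 14.3 to 25.1 CPM per library, and 16 of its 36 pairs were tested. Across the 25 fragments, which share the libraries and their distal partners, Spearman's rho between fragment length and log2 fold was -0.50 over MEF and -0.38 over pro-B cells.

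**Figure D2:**
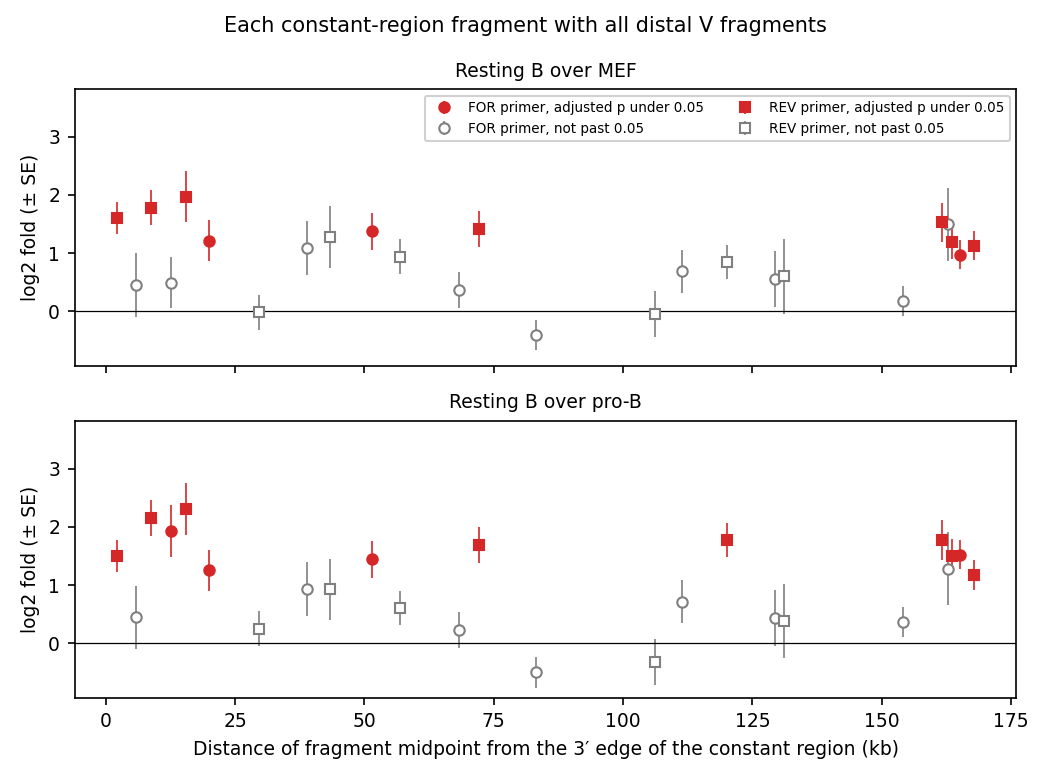
Log2 fold (± SE, n = 2 libraries per group) of the reads of each constant-region fragment with all distal V fragments, against its distance from the 3′ edge of the region, for resting B cells over MEF (top) and over pro-B cells (bottom). Filled red symbols passed an adjusted p of 0.05 in edgeR (10 and 12 of 25) and include REV 33, REV 35 and REV 37 at the 3′ end and 4 fragments next to the D-J region in both panels; the lowest point is FOR 49, at -0.41 and -0.50.

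Seen from the distal V side, 24 of 71 fragments rose with the constant genes over MEF and 29 over pro-B cells, and none was called lower in the same test (20.1% and 17.7% of all sums were called higher). Of the 24 near fragments before FOR 494, at the D-proximal end, 3 rose in each comparison, against 12 of the 19 near fragments from FOR 494 (116143528 to 116152233) onward, and 9 and 14 of the 28 far fragments. The share in the first stretch, 12.5%, lay below that of all sums. The medians of these 3 stretches were 0.70, 1.20 and 0.91 on the log2 scale over MEF and 0.55, 1.41 and 1.15 over pro-B cells. FOR 494 follows the widest gap between near fragments, and the split there was chosen after its values were seen. Without either resting B library the calls of the 71 were lost in both comparisons, and without either MEF library nearly all those over MEF. In these fits the calls of single pairs were also lost across the whole locus. Over MEF 47 and 48 passed without pro-B replicates 1 and 2 (36.5% and 36.7% of all sums), and over pro-B cells 57 without pro-B replicate 2 (34.1%). With gene desert reads as library size the counts were 8 and 8 (11.3% of the 71 in each; 12.4% and 6.45% of all sums).

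FOR 671 (116768031 to 116772149, 4119 bp), in the far distal V genes, had the most reads with the constant genes in both resting B libraries, MEF replicate 2 and pro-B replicate 1. In pro-B replicate 2 it came after FOR 517, FOR 399 and REV 545, and in MEF replicate 1 after REV 545 and FOR 517, whose values follow. It gave 1817 and 1719 CPM in the 2 resting B libraries, where MEF had 554 and 553 and pro-B cells 487 and 368. Both resting B libraries lay at over 3 times the other 4, and this 1 fragment held 14.1% and 12.6% of all member reads there, against 4.86% to 10.4% in the other libraries. Its log2 fold was 1.68 ± 0.28 over MEF and 2.05 ± 0.29 over pro-B cells (SE, n = 2; edgeR adjusted p = 0.00779 and 0.00465). All of its 13 pairs had both resting B libraries above the other 4, 6 of them past the threshold over pro-B cells, and its reads with the desert were not called. Without its pairs the far distal V sum rose by 1.02 over MEF and 1.32 over pro-B cells (edgeR adjusted p = 0.0134 and 0.00855).

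FOR 419 (115824507 to 115826299) had the largest fold of any distal V fragment, at a lower level. Its reads gave 168 and 177 CPM in the resting B libraries, against 36.4 and 16.9 in the MEF and 13.4 and 10.4 in the pro-B libraries, so the 3 cell types did not overlap. The log2 fold was 2.70 ± 0.42 over MEF and 3.86 ± 0.44 over pro-B cells (edgeR adjusted p = 0.00606 and 0.00319), and that of pro-B cells over MEF was -1.17 ± 0.40 and did not pass (edgeR adjusted p = 0.176). It lies among the 24 D-proximal fragments, of which 3 were called. FOR 494, FOR 510 (116198884 to 116203900), FOR 573 (116436677 to 116439886) and FOR 634 (116640887 to 116643838) rose by 1.20 to 1.87 over MEF and by 1.80 to 1.98 over pro-B cells.

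Other distal V fragments with many reads were not called. FOR 517 (116222484 to 116231679) gave 866 and 1224 CPM in the 2 resting B libraries, where MEF had 565 and 279 and pro-B cells 287 and 910. REV 545 (116342486 to 116353413) gave 627 and 921 CPM in the resting B libraries, against 666 and 395 in the MEF and 363 and 847 in the pro-B libraries. FOR 399 (115776652 to 115778814) gave 763 and 806 CPM in the 2 resting B libraries, where MEF had 456 and 211 and pro-B cells 351 and 858. In these 3 fragments the pro-B and resting B libraries overlapped, and the 2 pro-B libraries differed by over 2-fold, with replicate 2 the higher. FOR 451 had at most 0.764 CPM in any library, and none of its 13 pairs was tested.

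**Figure D3:**
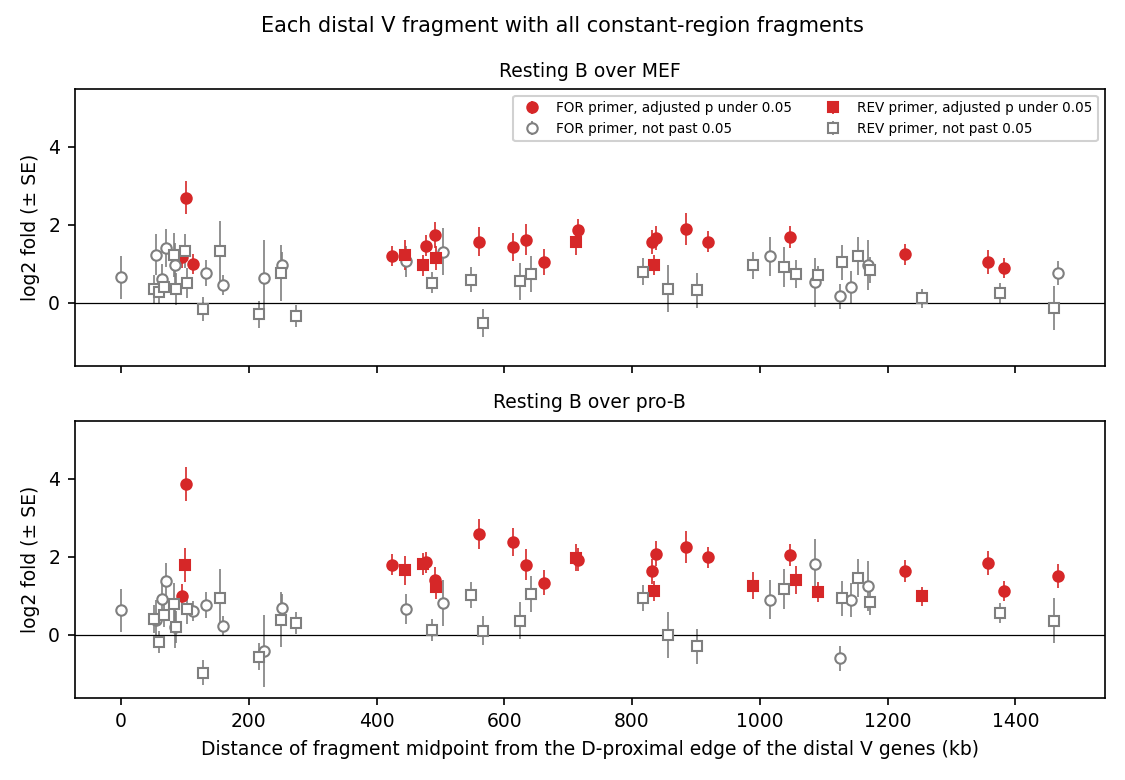
Log2 fold (± SE, n = 2 libraries per group) of the reads of each distal V fragment with all constant-region fragments, against its distance from the D-proximal edge of the distal V genes, for resting B cells over MEF (top) and over pro-B cells (bottom). Filled red symbols passed an adjusted p of 0.05 in edgeR (24 and 29 of 71); apart from FOR 419, at 2.70 and 3.86, most lie beyond the first 24 fragments.

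Among single pairs over pro-B cells, the one with the lowest p was FOR 671 with REV 35, 2275 kb apart. It gave 3807 and 3923 reads in the resting B libraries, against 741 and 989 in the MEF and 408 and 343 in the pro-B libraries, in that order of cell types with no overlap. Its log2 fold over pro-B cells was 3.17 ± 0.42 (SE, n = 2; edgeR adjusted p = 0.0213). FOR 671 with the neighbouring REV 37 gave 5049 and 3712 reads in the 2 resting B libraries, where MEF had 345 and 1058 and pro-B cells 320 and 503, with a log2 fold of 3.27 ± 0.47 (edgeR adjusted p = 0.0214). FOR 609 (116553198 to 116556522) with REV 37 yielded 470 and 539 reads in the resting B libraries, against 88 and 84 in the MEF and 24 and 17 in the pro-B libraries, with a log2 fold of 4.42 ± 0.74 (edgeR adjusted p = 0.0275). In each of these 3 pairs both resting B libraries lay above all others.

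The largest folds came from pairs with few pro-B reads, and 13 of the 48 had fewer than 10 in both pro-B libraries. FOR 36 with REV 435 (115877939 to 115880010) yielded 3 and 1 reads in the pro-B libraries, against 130 and 215 in the MEF and 249 and 369 in the resting B libraries. Here the pro-B libraries were low and MEF lay near resting B cells. The ratio of summed reads over pro-B cells was 139.6 after scaling, with a 95% counting interval of 54.2 to 514. FOR 419 with REV 37 yielded 4 and 2 reads in the 2 pro-B libraries, where MEF had 43 and 29 and resting B cells 512 and 233, with a ratio of 112 (51.3 to 307). These intervals cover counting error only and treat every read as independent, although amplification duplicates are counted. They leave out the spread between the libraries of a cell type.

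All 3 members that fell over pro-B cells involved the long constant fragments FOR 49 and REV 39. FOR 49 with REV 401 (115780319 to 115786560) yielded 31 and 21 reads in the 2 resting B libraries, where MEF had 125 and 163 and pro-B cells 361 and 665, with a log2 fold of -4.42 ± 0.64 (edgeR adjusted p = 0.0214). FOR 49 with REV 428 (115848051 to 115855284) yielded 9 and 5 reads in the resting B libraries, against 69 and 103 in the MEF and 197 and 317 in the pro-B libraries, with a log2 fold of -5.31 ± 0.85 (edgeR adjusted p = 0.0248). The reads of both distal fragments with the gene desert were also lower over pro-B cells, with a log2 fold of -1.55 for REV 401 and -2.51 for REV 428 (edgeR adjusted p = 0.0422 and 0.00803), and the part of this in the result was not tested. FOR 436 (115880011 to 115885590) with REV 39 yielded 2 reads in each resting B library, against 28 and 46 in the MEF and 47 and 136 in the pro-B libraries, a ratio of resting B over pro-B reads of 0.0197 (95% counting interval 0.00532 to 0.0514). In all 3 pairs, in CPM, resting B cells were lowest, MEF between and pro-B cells highest with no overlap, and all 3 distal fragments lay in the D-proximal stretch before FOR 494.

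Over MEF the pairs with the lowest p did not pass. FOR 399 with REV 37 yielded 2511 and 2088 reads in the 2 resting B libraries, where MEF had 277 and 237 and pro-B cells 305 and 658, and its log2 fold was 3.02 ± 0.51. That of FOR 671 with REV 37 was 2.70 ± 0.45, and both had an edgeR adjusted p just above the threshold of 0.05. FOR 671 with REV 35 followed at 2.10 ± 0.41 (edgeR adjusted p = 0.0597). On the lower side, FOR 49 with REV 428, REV 401 and REV 628 had log2 folds of -3.65, -2.54 and -3.42 (edgeR adjusted p = 0.0737, 0.0824 and 0.104).

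**Figure D4:**
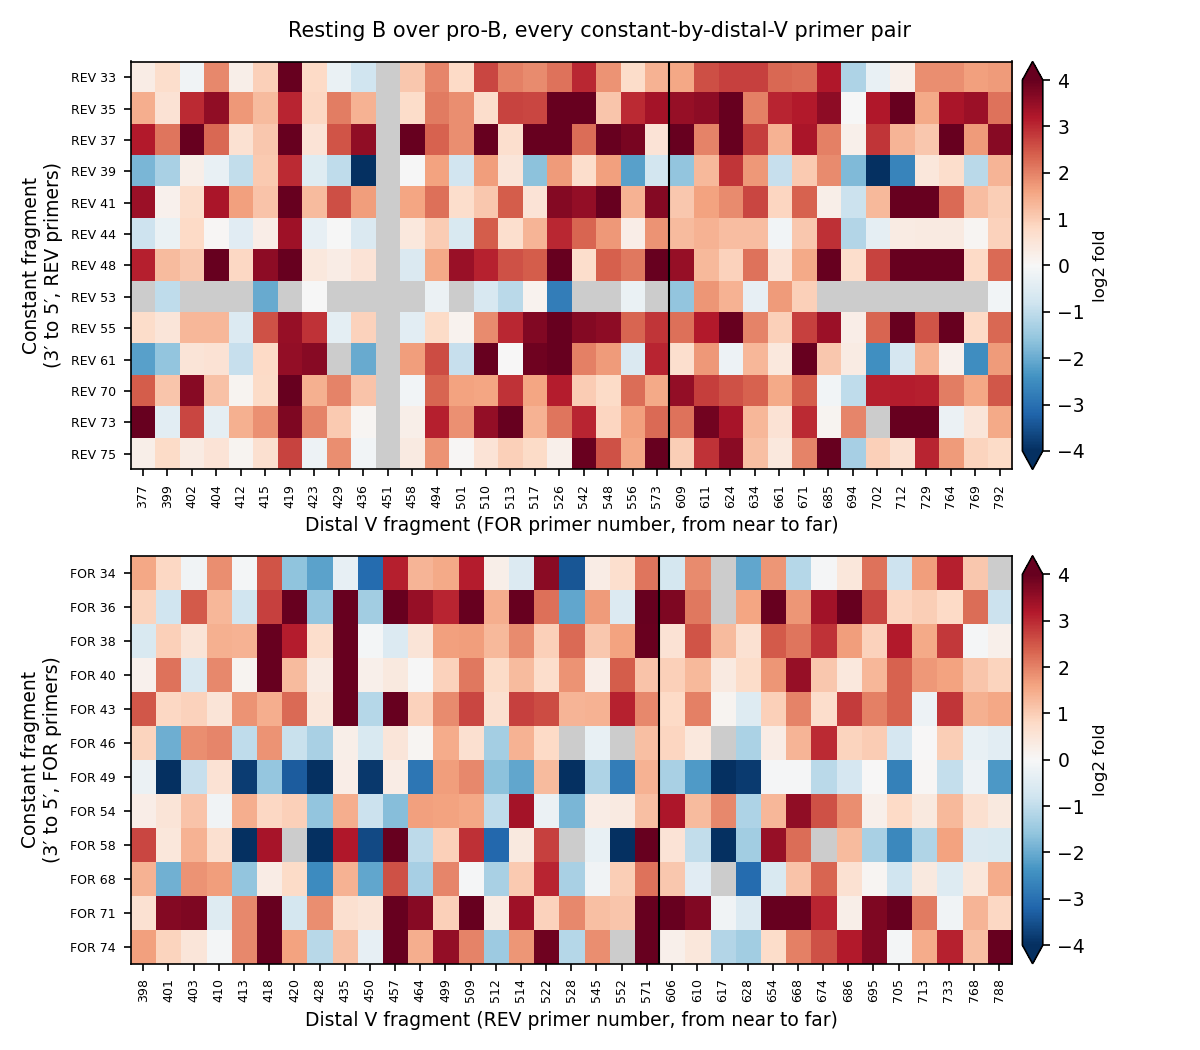
Log2 fold of resting B over pro-B cells for every member pair, with constant fragments in rows from the 3′ to the 5′ end and distal V fragments in columns from near to far; the black line parts near from far and grey pairs were not tested. The upper panel holds constant REV with distal FOR primers and the lower one constant FOR with distal REV primers; rows REV 35 and REV 37 are red in 34 and 35 of 35 tested pairs, and row FOR 49 is blue in 26 of 35.

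A single member had a standardised residual of at least 2 above its expectation in every library. FOR 517 with REV 41 (114528706 to 114531105), 1697 kb apart, yielded 13829 and 20537 reads in the resting B libraries, against 7892 and 4808 in the MEF and 3658 and 19611 in the pro-B libraries. The pro-B libraries spanned nearly the whole range, and none of the 3 comparisons was called (log2 folds of 1.26 ± 0.74 over MEF and 0.55 ± 0.73 over pro-B cells for resting B cells; edgeR adjusted p = 0.375 and 0.644). It held 3.15% to 11.0% of all member reads of a library. Against a quasi-Poisson expectation from separation and primer strength, its standardised residual was 23.0 and 27.4 in the 2 resting B libraries, where MEF had 18.9 and 11.0 and pro-B cells 11.3 and 27.0. FOR 402 (115786561 to 115788403) with REV 61 (114617320 to 114617981) reached 2 in both libraries of MEF (5.02 and 12.3) and of resting B cells (4.34 and 4.53), and in pro-B cells had 0.318 and 4.68. These 2 were the only members at a residual of at least 2 in both libraries: 2 of 888 in MEF (0.225%; 0.449% of Igh pairs over 50 kb apart), 1 in pro-B cells (0.113%; 0.465%) and 2 in resting B cells (0.225%; 0.773%). At a residual of at least 1.5, resting B cells had 3 members (0.338%; 1.19% of Igh pairs over 50 kb apart), with FOR 609 with REV 41 added at 1.99 and 2.25, against 2 in MEF and 1 in pro-B cells.

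Other members with many reads were FOR 671 with REV 33, with 9125 and 9410 reads in the resting B libraries, against 1701 and 3200 in the MEF and 1799 and 1696 in the pro-B libraries, and FOR 671 with REV 44 (114539129 to 114547720), with 7733 and 6657, 2559 and 3179, and 2494 and 3650. Both had resting B libraries above the rest, and the first rose over pro-B cells with a log2 fold of 2.23 ± 0.38 (edgeR adjusted p = 0.0276). FOR 399 with REV 44 yielded 2613 and 2683 reads in the 2 resting B libraries, where MEF had 1686 and 1207 and pro-B cells 1516 and 4541. FOR 38 (114502800 to 114510164) with REV 545 yielded 3050 and 4547 reads in the resting B libraries, against 1414 and 1309 in the MEF and 889 and 2603 in the pro-B libraries. In CPM the pro-B and resting B libraries overlapped in FOR 399 with REV 44 and not in FOR 38 with REV 545.

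**Figure D5:**
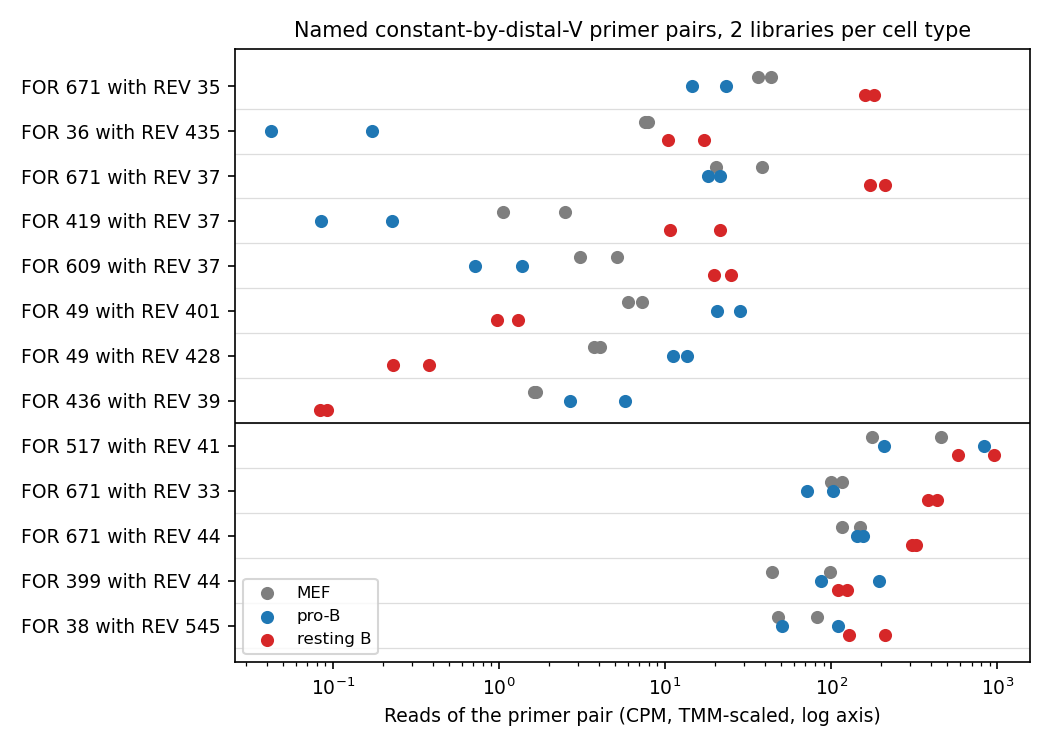
Reads of single member pairs in CPM after TMM scaling, on a log axis, with 2 points per cell type. Above the black line are the 5 named pairs of the 48 called higher in resting B over pro-B cells, and the 3 called lower. Below it are the 5 pairs with the most reads, of which FOR 671 with REV 33 was also called higher. FOR 517 with REV 41, at 175 to 950 CPM, is the highest of the plotted pairs in every library.

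Whether the far distal V genes gained more than the near ones was tested on the ratio of far to near reads of each fragment, which is free of library size. The 25 constant fragments had a median far-minus-near difference of 0.08 on the log2 scale for resting B cells over MEF and 0.41 over pro-B cells, with 14 and 19 above 0. Over all 154 fragments outside the distal V genes the medians were 0.02 and 0.24. No fragment was called in limma in any of the 3 comparisons (0.0% of the 154 fragments). At an unadjusted limma p under 0.05, resting B cells over MEF had 2 of the 25 constant fragments higher and 2 lower (3.9% and 14.3% of the 154). Over pro-B cells 6 of the 25 were higher (18.8% of the 154). For pro-B cells over MEF 1 of the 25 was lower (5.84% of the 154). Without pro-B replicate 1, 9 constant fragments were called higher in far over near reads for resting B over pro-B cells (limma adjusted p under 0.05; 36.0% of them and 27.3% of the 154 fragments).

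Pro-B cells and MEF were compared to see whether the unrearranged locus of the progenitors differs at these contacts from that of a cell outside the lineage. In sums neither part was called: the log2 fold of pro-B cells over MEF was 0.14 ± 0.31 with the near and -0.31 ± 0.23 with the far distal V genes (edgeR adjusted p = 0.801 and 0.496; 9.09% of region pairs were called higher and 0.0% lower). The median over single pairs was below 0 in both parts, at -0.25 for the near and -0.46 for the far genes, so sum and median differed in sign for the near ones. With each pair counted once on the log2 CPM scale the folds were -0.70 and -0.93, and the second passed (limma adjusted p = 0.052 and 0.0322). Both pro-B libraries lay below both MEF libraries in 276 members (31.1%; 22.5% of all Igh pairs) and above them in 74 (8.33%; 18.7% of all Igh pairs). No pair was called in edgeR's test (0.0% of all Igh pairs in either direction), with 58 members lower and 8 higher at an unadjusted p under 0.05 (6.88% and 0.949%; 4.17% and 5.0% of all Igh pairs). DESeq2 called 23 lower and 1 higher (2.73% and 0.119%; 1.13% and 1.34% of all Igh pairs). Without pro-B replicate 1, edgeR called 258 members lower and 61 higher (30.8% and 7.27%; 22.7% and 9.55% of all Igh pairs), and without pro-B replicate 2 it called 8 lower and 0 higher (0.558% and 1.26% of all Igh pairs).

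The members with the lowest p in this comparison had few reads in pro-B cells. FOR 36 with REV 435, given above, had a log2 fold of -6.16 ± 0.97 (edgeR adjusted p = 0.236). FOR 43 (114537058 to 114539128) with REV 457 (115972764 to 115974287) yielded 0 and 1 reads in the pro-B libraries, against 44 and 87 in the MEF and 98 and 58 in the resting B libraries. FOR 71 (114649352 to 114649657) with REV 606 (116539430 to 116542358) yielded 1 read in each pro-B library, against 40 and 46 in the MEF and 122 and 134 in the resting B libraries. On the higher side, FOR 412 (115807614 to 115809234) with REV 33 yielded 291 and 639 reads in the 2 pro-B libraries, where MEF had 83 and 180 and resting B cells 729 and 462, and FOR 402 with REV 33 yielded 302 and 471, 74 and 198, and 366 and 394. None of these differences passed the threshold.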

How the data were processed

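5C products of 6 mouse libraries (2 per cell type) were analysed. The authors deposited raw counts of read pairs called valid for each primer pair, zero pairs unlisted; the file headers give 42 as read length, and no correction for distance, primer strength or duplicates is recorded there; pairs not listed were set to 0. Per the submitters' processing notes, Novoalign was used with mm9; for its version, nothing is given in the sources used here. Members and lists were chosen with earlier results of these data known.

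Counts of all Igh and gene desert cis pairs that reached 10 reads in 2 or more libraries were scaled by TMM and tested with edgeR 4.0.16 (R 4.3.3; quasi-likelihood, all 6 libraries, cell type as the only term), with Benjamini-Hochberg adjustment over all Igh pairs and a threshold of 0.05. Sums over region pairs, fragment-by-region sums and fragment reads with the gene desert were tested in the same way, each adjusted over its own table. Each SE was taken as log2 fold over the root of the F statistic. Far against near reads, log2 of (far + 1)/(near + 1), were tested with limma 3.58.1. Residuals came from a quasi-Poisson model per library for pairs over 50 kb apart, using primer effects and log separation as a natural spline with 4 degrees of freedom. Counting intervals are exact binomial ones. The edgeR and limma tests and the residuals were tried on simulated data. The edgeR and limma p-values rest on the spread between the 2 libraries of a cell type, shared over all 6 libraries. Each comparison therefore also draws on the spread of the cell type that it leaves out.

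Named pairs are up to 5 per direction past the threshold in order of p with both libraries of 1 group above both of the other (3 where none passed), the 5 with the most reads, and up to 5 per cell type above expectation. Named fragments are all constant ones, the 5 distal V fragments with the most reads and up to 5 per direction in order of p. Regions other than the members' own were set by approximate positions. Alternatives covered library size, filter, DESeq2 1.42.0, libraries in the fit, replicate block, distance trend, equal weight per pair, and each library left out; those leaving out FOR 671 or adding 0.5 reads were chosen after seeing the data.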

Additional observations from a re-analysis of the deposited data

How the results depend on the processing

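With 2 libraries a group, calls of single pairs turned on the settings more than directions did. Of 411 alternative values of the results answering a comparison, 305 kept their direction and side of the threshold or stayed within 1.5 times the count and 106 did not (76 counts or values moved, 23 calls were lost, 2 gained and 5 directions turned); the cause was not tested. For resting B cells over MEF, the member pairs called higher, 0, were 1 with total cis reads as library size or DESeq2 size factors, 2 with gene desert reads, no filter or at least 50 reads, 60 with DESeq2 (5 lower) and 210 with the 4 compared libraries alone (15 lower). Where 1 or 2 members were called, 0.486% to 0.903% of all tested Igh pairs were called higher. For resting B over pro-B cells, 48 higher and 3 lower became 194 and 12 with DESeq2, 22 higher with the distance trend removed, and 0 and 0 with the 4 compared libraries alone. No Igh pair was called in either direction under the last of these settings. DESeq2 called 1 higher and 23 lower for pro-B cells over MEF. Gene desert scaling moved the median of all Igh pairs by 0.47 over MEF and 0.28 over pro-B cells, and total reads by 0.23 and 0.27; member medians stayed 0.94 and 1.22 above it with the first.

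Called region sums of resting B cells kept their direction throughout and lost their call as follows. Near genes over MEF gave 1.30 with total reads, 1.55 with desert reads, 0.84 with distance removed and 0.79 with each pair counted once and 0.5 reads added. Near genes over pro-B cells gave 1.10, 1.02 and 0.69 under the first 3, and 0.94 with the 4 compared libraries alone. Far genes over MEF gave 1.69 with desert reads, 0.54 with distance removed and 0.70 with each pair counted once and 0.5 reads added, and over pro-B cells 1.73 and 0.59 under the first 2. For pro-B cells over MEF, each pair counted once reversed the near genes to -0.70 (-0.88 with 0.5 reads added) and brought the far genes past the threshold at -0.93 (-1.15). The difference in the share of Igh reads, 0.00578 percentage points, turned to -0.0208 without the member pair with the most reads.

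Constant fragments called higher numbered 5 (over MEF) and 3 (over pro-B cells) with desert scaling and 18 over MEF with the 4 compared libraries alone; for pro-B cells over MEF, DESeq2 called 1 lower. Distal V fragments numbered 8 and 8 with desert scaling, 47 over MEF with the 4 libraries alone, and 44 over pro-B cells with each pair counted once, where 1 was lower, as with DESeq2.

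Leaving out 1 library, near sums ranged from 0.86 to 1.23 (resting B over MEF), 0.52 to 1.38 (over pro-B cells) and -0.35 to 0.51 (pro-B over MEF, reversed to -0.35 without pro-B replicate 2 and -0.07 without MEF replicate 2), and far sums from 1.15 to 1.27, 1.36 to 1.69 and -0.48 to -0.16. In the same order of comparisons, member pairs called higher ranged from 0 to 209, 0 to 361 and 0 to 61, and lower from 0 to 17, 0 to 37 and 0 to 258. Constant fragments called higher ranged from 0 to 18, 0 to 19 and 0 to 3, and lower from 0 to 6 in the last. Distal V fragments ranged from 0 to 48, 0 to 57 and 0 to 7, with 0 to 3 lower in the second and 0 to 12 in the last. Far against near calls of constant fragments ranged from 0 to 1 and 0 to 9 higher, and 0 to 5 lower in the last. The highest counts of called member pairs all came from fits without 1 pro-B library. Calls rose across the whole locus in those fits, in both directions, so these counts do not describe the members alone. A cell type left with 1 library is assumed to vary like the others. Of 40 named calls, 40 were lost without either resting B replicate, 23 without either MEF replicate, and 18 with desert scaling.

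The replicate numbers are not stated to pair libraries across cell types, and deviations from the group means of same-numbered libraries did not correlate (r of -0.02, 0.06 and -0.01). With the number as a replicate block, 7 of 843 members were higher and 1 lower for resting B over pro-B cells. Of the 11940 tested Igh pairs, 67 were then higher (0.561%) and 204 lower. The region sums kept their calls, and 4 of 40 named calls were lost.

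Depth limits single pairs most in pro-B cells, where 173 and 336 of the 888 members had fewer than 10 reads.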

Other observations

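The 2 primer arrangements of the members differed in level of change. Pairs of a constant REV with a distal FOR primer (434 tested) had a median log2 fold of 1.22 for resting B cells over MEF and 1.54 over pro-B cells. Pairs of a constant FOR with a distal REV primer (409 tested) had medians of 0.57 and 0.95. Of the 48 members called higher over pro-B cells, 39 were of the first arrangement and 9 of the second. Other Igh pairs of the same separations also had more such calls with a REV primer on the 3′ fragment. There 55 of 1958 tested pairs were called higher, against 25 of 1959 with a FOR primer. The medians of these other pairs with a REV or FOR primer on the 3′ fragment were 0.21 and 0.23 over MEF and 0.16 and 0.03 over pro-B cells. The 2 arrangements use different restriction fragments, and their difference was not tested.

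Reads of each fragment with the gene desert on chromosome 5 varied alongside the contacts described. Across the 25 constant fragments, the log2 fold with the distal V genes and that with the desert had a Pearson's r of 0.41 over MEF and 0.44 over pro-B cells, and across the 71 distal V fragments 0.60 and 0.59. The points share libraries and, within a side, the same partners. The median desert log2 fold was 0.27 and 0.19 for constant fragments and -0.16 and -0.50 for distal V fragments, so that the distal fragments had, at the median, lower desert reads and higher reads with the constant genes in resting B cells. Over pro-B cells 2 of the 25 constant and 8 of the 71 distal V fragments were called with the desert, against 8.89% of all 225 Igh fragments. Pro-B replicate 1 had few desert reads, at 0.554% of its valid read pairs against 2.02% to 3.41% in each other library. The part of the desert reads in the contact folds was not tested.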
